A study of Homo sapiens with 6 samples.

Results

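Tetraspanins are small proteins that cross the membrane 4 times. They gather integrins, adhesion molecules, proteases and each other into membrane patches, and several of them are carried in endosomes and extracellular vesicles. In keratinocytes they are known mainly as companions of integrins and of the shedding protease ADAM10. The 10 genes described here are CD9, CD63, CD81, CD82, CD151, TSPAN1, TSPAN3, TSPAN14, TSPAN15 and TSPAN31. They were listed by name, without a threshold on any value, out of 27988 genes that the files name. All 10 passed the filter on low values.

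The RNA came from HaCaT cells, an immortalised human keratinocyte line, and was sequenced in 6 libraries. In the 3 PSENEN siRNA libraries the cells had received 100 pmol of an siRNA against PSENEN, and in the 3 mismatch siRNA libraries a mismatch siRNA whose dose the labels do not give. Both were delivered with a lipid transfection reagent, and the labels name extraction at 48 h and 72 h without saying which time was sequenced. The labels also do not say whether libraries of a group came from separate cultures, so p-values measure the spread between these libraries, which may be technical. The PSENEN protein is part of γ-secretase, which cuts the membrane stubs of Notch and other proteins after ADAM10 or a related enzyme has removed their outer part. The comparison asks what the siRNA against this subunit did to the RNA of keratinocytes. A further group in the labels, given the reagent alone, is not analysed here.

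Levels are in TPM, a unit scaled for transcript length and library size, so they can be set side by side between genes. The assembler gave a gene name only to transcripts that match the reference annotation. The annotated level of a gene is the sum over those. The full level adds unnamed assembled transcripts that contain at least 1 intron of that gene. Unnamed transcripts without an annotated intron, or with as many from another gene, enter neither level. A change is the mean log2(TPM + 1) with the PSENEN siRNA minus that with the mismatch siRNA, a scale that shrinks the differences of weakly expressed genes. Each comes from limma with an intensity trend fitted over every gene that reached 1 TPM in 3 or more libraries. A gene was called when its Benjamini-Hochberg adjusted p over all genes was under 0.05. SDs are over n = 3 libraries per group, and single values were compared by a two-sided exact permutation test, which with 3 libraries on each side cannot go below p = 0.1.

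PSENEN itself (ENSG00000205155) was checked first. Its annotated level was 1.75, 2.08 and 1.496 TPM in PSENEN siRNA libraries 1 to 3 and 6.58, 8.85 and 6.55 TPM in mismatch siRNA libraries 1 to 3. It was lower in each PSENEN siRNA library than in every mismatch siRNA library, at 24.2% of the mismatch mean (change -1.58, SE 0.18, limma adjusted p = 0.0471). This call was lost in 18 of 26 alternative analyses, with adjusted p from 0.0398 to 0.306 over all 26. Leaving out any single library was among these, with a change of -1.45 to -1.66 and an adjusted p of 0.110 to 0.155.

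Libraries differed in some general measures. The estimated amount of aligned sequence was 9.16 to 11.9 gigabases in PSENEN siRNA libraries and 11.5 to 15.6 in mismatch siRNA libraries (exact permutation p = 0.2). Unnamed transcripts sharing introns with named genes held 5.37 to 5.74% and 6.07 to 6.80% of TPM (exact permutation p = 0.1). All 7 keratinocyte markers looked for were detected (KRT5, KRT14, TP63, DSG3, DSC3, PKP1 and SFN), with a summed full level of 3219 to 3811 TPM in PSENEN siRNA libraries and 5003 to 7955 TPM in mismatch siRNA libraries. By full level 6 of the 7 were lower in every PSENEN siRNA library than in any other, against 14.5% of all genes tested, and 0 of 7 were called. By annotated level the sums overlapped, at 3081 to 3811 and 3068 to 7236 TPM. There 5 of the 7 were lower in this way, against 13.7% of all genes tested, and 0 were called. Annotated KRT14 overlapped between groups, with 675, 3913 and 146 TPM in mismatch siRNA libraries 1 to 3. The fibroblast, melanocyte, leukocyte and endothelial marker lists summed to at most 5.30 TPM in any library. Of these markers, 3 of 6 fibroblast, 3 of 5 melanocyte, 4 of 6 leukocyte and 2 of 4 endothelial genes were listed in no library, and 0 were called. The part of keratinocyte marker levels and of depth in the results below was not tested.

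Of the 10 tetraspanins, 0 passed the test on annotated levels, on full levels or in any of the 26 alternative analyses. Called genes made up 0.409% of the 15647 genes tested on annotated levels and 0.511% of the 16428 tested on full levels. In RNA from whole cultures, fewer cells with a transcript and less of it per cell cannot be told apart. By annotated level, CD9, CD82, CD151 and TSPAN14 were lower in every PSENEN siRNA library than in any mismatch siRNA library, and none was higher in all. Among all genes tested, 13.7% were separated downwards in this way and 8.21% upwards. By full level, CD82, TSPAN1 and TSPAN14 were separated downwards and CD81 upwards, against 14.5% and 7.81% of all genes tested. The same 4 genes in each case had an unadjusted p under 0.05, against 13% of all genes for annotated levels and 14.6% for full levels. The median change of the 10 was -0.28 by annotated level, beside -0.04 over all genes tested, and -0.20 by full level, beside -0.05.

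**Figure D1:**
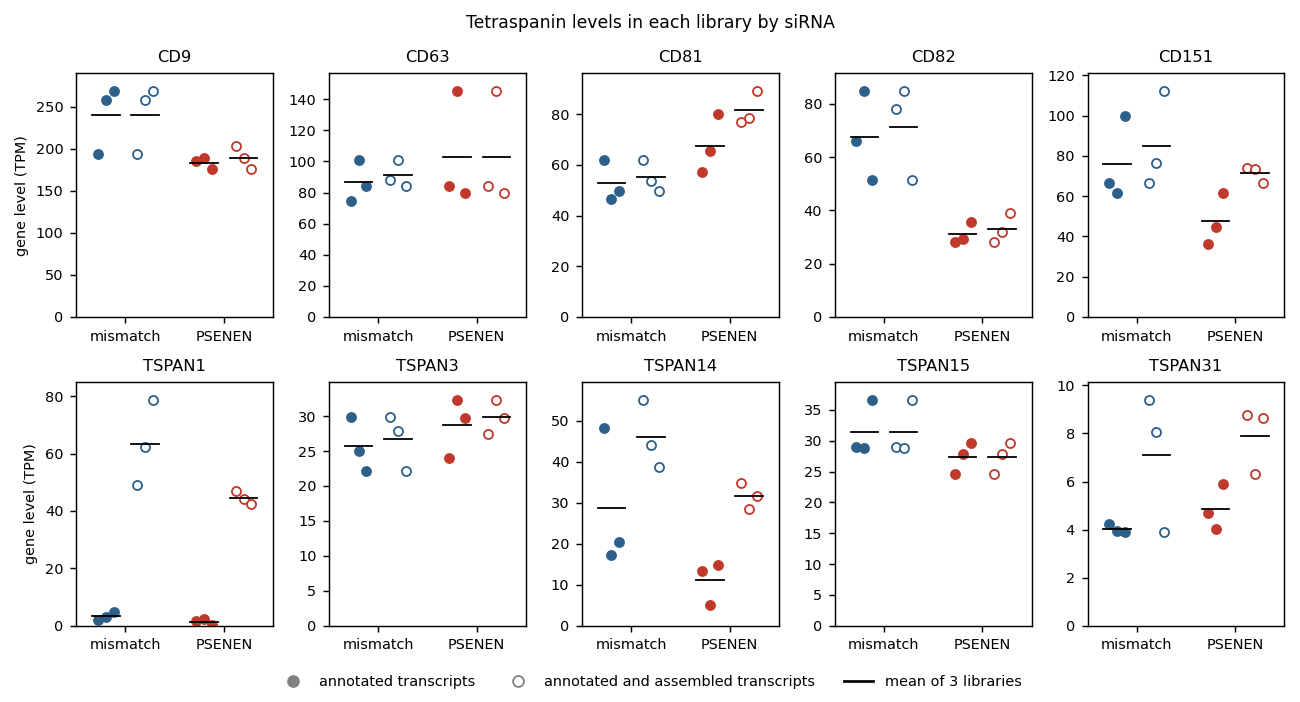
Level of each of the 10 tetraspanins in TPM (vertical axis, linear, from 0, with its own scale for each gene) in the 3 mismatch siRNA and 3 PSENEN siRNA libraries. Each point is 1 library, filled for annotated transcripts and open for annotated and assembled transcripts together, and the line is the mean of 3 libraries. CD82 and TSPAN14 lie lower with the PSENEN siRNA by both measures, CD81 lies higher by the open points, and the filled points of TSPAN1 lie near 0 in both groups.

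The members differed widely in level. With the mismatch siRNA, CD9 had the highest full level, with 194, 258 and 268 TPM, and TSPAN31 the lowest, with 9.39, 8.05 and 3.88 TPM. Between them stood CD63, CD151, CD82, TSPAN1, CD81, TSPAN14, TSPAN15 and TSPAN3, in order of their mean over the 3 libraries. Neighbours in this order overlapped over the 3 libraries, except that CD9 stood above CD63, TSPAN14 above TSPAN15 and TSPAN3 above TSPAN31. The summed full level of the 10 genes was 610, 657 and 592 TPM with the PSENEN siRNA and 661, 746 and 746 TPM with the mismatch siRNA. CD9, CD63 and CD81, the tetraspanins most often used as vesicle markers, held 58.1 to 62.8% of that sum with the PSENEN siRNA and 52.0 to 55.4% with the mismatch siRNA. These sums are descriptions of genes chosen with the results known.

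CD63 and CD82 each had 2 annotated transcripts that together carried most of the gene, 1 protein-coding and 1 with a kept intron that GENCODE lists without a coding sequence. The sequences below show what tells them apart. Each is 60 bases, 30 on either side of the point where the intron ends, from GENCODE 29 on GRCh38, and capitals mark intron bases that stay in the RNA. CD63-201 joins 2 exons across the intron at chr12:55725897-55726120 (minus strand), and CD63-216 begins inside that intron and keeps its last 72 of 224 bases. CD82-201 removes the intron at chr11:44605183-44605354 (plus strand), and CD82-207 keeps all 172 bases of it.
CD63-201: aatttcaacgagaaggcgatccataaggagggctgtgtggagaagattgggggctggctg
CD63-216: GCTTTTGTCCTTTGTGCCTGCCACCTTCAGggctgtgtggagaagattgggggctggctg
CD82-201: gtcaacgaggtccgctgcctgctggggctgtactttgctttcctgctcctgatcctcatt
CD82-207: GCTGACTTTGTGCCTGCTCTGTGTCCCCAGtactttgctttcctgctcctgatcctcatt
In each pair the lower-case bases after the capitals are the same in both transcripts, and only the bases before them differ.

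CD9 (ENSG00000010278, chr12:6199715-6238271, plus strand) binds the immunoglobulin-like proteins PTGFRN and IGSF8 and is a common marker of the cell surface and of vesicles. Its annotated level was 185, 189 and 175 TPM with the PSENEN siRNA and 194, 258 and 268 TPM with the mismatch siRNA. The groups did not overlap, though mismatch siRNA library 1 lay close to the PSENEN siRNA libraries. The change was -0.38 (SE 0.14, 95% interval -0.72 to -0.03) and did not pass the test (limma adjusted p = 0.346). By full level PSENEN siRNA library 1 was at 204 TPM and the groups overlapped (change -0.33, adjusted p = 0.367). The protein-coding transcript CD9-201 held 96.6% ± 5.23 and 96.4% ± 5.32 of the annotated level, so nearly all of it came from 1 transcript in both groups.

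CD81 (ENSG00000110651, chr11:2376177-2397419, plus strand) is a close relative of CD9 and the cell surface receptor used by hepatitis C virus. Its full level was 77.0, 78.6 and 89.1 TPM with the PSENEN siRNA and 62.1, 53.9 and 49.5 TPM with the mismatch siRNA. All 3 PSENEN siRNA libraries were above all 3 others, at 148% of the mismatch mean. The change was 0.56 (SE 0.12, 95% interval 0.27 to 0.85), with a limma adjusted p = 0.122. By annotated level the groups overlapped, with 57.3, 65.7 and 80.0 TPM against 62.1, 46.7 and 49.5 TPM, and the change was 0.35 (adjusted p = 0.445; 0.22 without PSENEN siRNA library 3).

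The 2 main transcripts of CD81 varied between libraries of the same group. The protein-coding CD81-201 was at 37.5, 63.1 and 65.5 TPM with the PSENEN siRNA and at 26.1, 39.1 and 37.2 TPM with the mismatch siRNA. The retained intron transcript CD81-204 was at 15.8, 0.535 and 12.3 TPM against 34.8, 6.65 and 10.6 TPM. Both transcripts overlapped between groups, and neither was called. Summed over protein-coding transcripts alone, the groups of CD81 were separated, with a change of 0.68 (adjusted p = 0.307).

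CD63 (ENSG00000135404, chr12:55725323-55729707, minus strand) sits mostly in late endosomes and lysosomes and is sorted into exosomes. As a whole gene it showed no separation, with an annotated level of 84.3, 145 and 79.5 TPM with the PSENEN siRNA and 74.9, 101 and 84.5 TPM with the mismatch siRNA (change 0.20, 95% interval -0.42 to 0.82, limma adjusted p = 0.770). PSENEN siRNA library 2 was the highest, and without it the change was -0.07. The 2 transcripts shown above differed in opposite directions beneath this sum.

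The protein-coding CD63-201, of 1070 bases, was at 62.0, 129 and 52.5 TPM with the PSENEN siRNA and at 23.8, 47.9 and 34.8 TPM with the mismatch siRNA. The lowest PSENEN siRNA library was above the highest mismatch siRNA library (change 1.11, SE 0.42). In the fit over single annotated transcripts it was not called (adjusted p = 0.496). CD63-216, of 230 bases, was at 19.4, 15.8 and 23.8 TPM with the PSENEN siRNA and at 38.8, 49.9 and 49.3 TPM with the mismatch siRNA. Here every PSENEN siRNA library was below every other (change -1.19, SE 0.19), and the test again was missed (adjusted p = 0.0972). In that fit over 26204 transcripts, 6.98% were separated upwards and 10.5% downwards, and 0.37% were called.

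The share of the CD63 annotated level held by CD63-201 was 73.6, 89.0 and 66.0% with the PSENEN siRNA and 31.7, 47.4 and 41.2% with the mismatch siRNA. The means of 76.2% ± 11.7 and 40.1% ± 7.89 differed by more than the spread in either group, and the exact permutation p was 0.1, the smallest the design allows (0.5 adjusted over the 10 members). TPM divides by length, which weights a transcript of 230 bases heavily. Counted in assembled bases (coverage times length), CD63-216 made up 5.92% ± 3.18 of the pair with the PSENEN siRNA and 22.5% ± 3.91 with the mismatch siRNA. These groups did not overlap (exact permutation p = 0.1). With fixed lengths the order of the libraries follows from the TPM of the pair, so this separation is not a further test. Summed over protein-coding transcripts alone, CD63 was at 64.8, 129 and 55.6 TPM against 24.6, 51.2 and 35.2 TPM (change 1.11, adjusted p = 0.297). Over all its annotated transcripts but counted in assembled bases, the CD63 change was 0.82 (limma adjusted p = 0.331). The size of the CD63 difference thus depends on which transcripts are summed and on the unit.

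**Figure D2:**
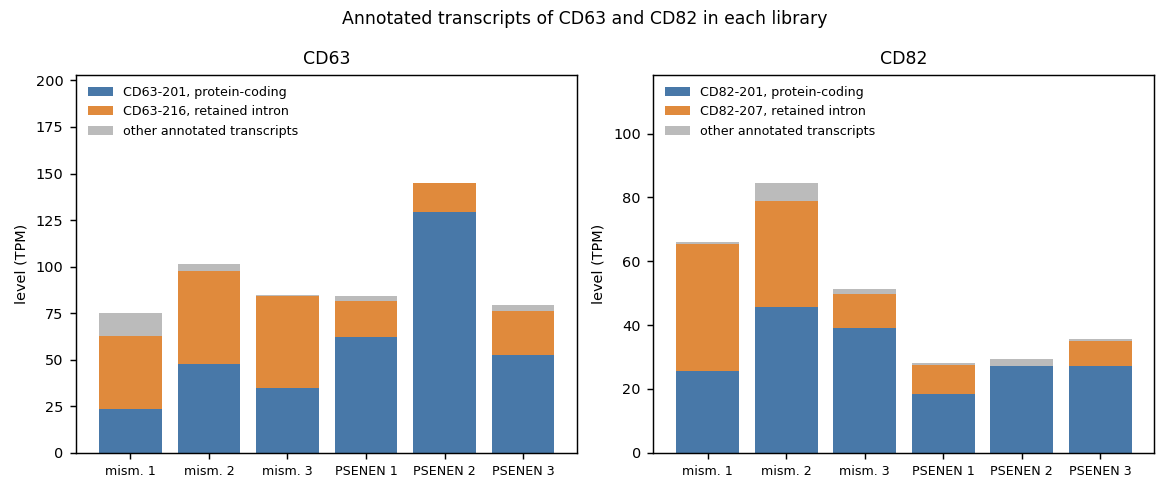
Annotated level in TPM (vertical axis, from 0) of CD63 (left) and CD82 (right) in each library, stacked by transcript: the protein-coding transcript, the retained intron transcript and all other annotated transcripts. In CD63 the retained intron transcript is at 38.8 to 49.9 TPM in the mismatch siRNA bars and at 15.8 to 23.8 TPM in the PSENEN siRNA bars. In CD82 the same kind of transcript reaches 39.7 TPM in mismatch siRNA library 1 and is near 0 in PSENEN siRNA library 2.

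CD82 (ENSG00000085117, chr11:44564427-44620363, plus strand), also called KAI1, binds integrins and growth factor receptors and is known as a suppressor of metastasis. It had the largest separated difference of full level among the 10. Its annotated level was 28.1, 29.3 and 35.6 TPM with the PSENEN siRNA and 66.2, 84.7 and 51.2 TPM with the mismatch siRNA. Every PSENEN siRNA library was below every mismatch siRNA library, and the mean was 46.0% of the mismatch mean. The change was -1.07 (SE 0.20, 95% interval -1.57 to -0.58). It did not pass the test by annotated level (limma adjusted p = 0.109) or by full level (change -1.07, adjusted p = 0.107).

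Part of the CD82 difference lay in the retained intron transcript. CD82-207, of 1405 bases, was at 9.10, 0.0184 and 8.02 TPM with the PSENEN siRNA and at 39.7, 33.3 and 10.5 TPM with the mismatch siRNA. The groups were separated, but mismatch siRNA library 3 was close to PSENEN siRNA library 1 (change -2.48, SE 1.03, adjusted p = 0.538). The protein-coding CD82-201 was at 18.3, 27.2 and 27.1 TPM against 25.6, 45.7 and 39.2 TPM, and here the groups overlapped. Over protein-coding transcripts alone, the CD82 change was -0.60 with overlapping groups (adjusted p = 0.404). CD82-207 held 12.9% ± 11.9 of the assembled bases of its pair with the PSENEN siRNA and 31.3% ± 17.3 with the mismatch siRNA, with overlapping ranges (exact permutation p = 0.3).

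CD151 (ENSG00000177697, chr11:832843-839831, plus strand) is the partner of the laminin-binding integrins and is found in hemidesmosomes of basal keratinocytes. Its annotated level was 36.1, 44.9 and 61.5 TPM with the PSENEN siRNA and 66.6, 61.6 and 99.6 TPM with the mismatch siRNA. The groups just failed to touch (change -0.67, SE 0.26, limma adjusted p = 0.361). By full level they overlapped, with 74.0, 73.7 and 66.4 TPM against 66.6, 76.6 and 112 TPM, and the change was -0.22 (adjusted p = 0.662). Without mismatch siRNA library 3, that full-level change was -0.003.

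Which CD151 transcript carried the gene varied from library to library. CD151-213 was listed at 0 in PSENEN siRNA library 1 and at 18.3 to 47.8 TPM in the mismatch siRNA libraries. CD151-202 was listed at 0 in PSENEN siRNA library 2 and at 11.2 to 34.4 TPM in the mismatch siRNA libraries. On the opposite strand, 2476 bases of CD151 lie under POLR2L, which encodes a small RNA polymerase subunit. POLR2L was at 62.3, 67.5 and 69.0 TPM with the PSENEN siRNA and at 11.3, 20.1 and 44.3 TPM with the mismatch siRNA (full level, change 1.57, adjusted p = 0.187). The strandedness of the libraries is not given in the sources used here, and reads of the 2 genes in the shared stretch cannot be told apart if they were not stranded.

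TSPAN14 and TSPAN15 belong to the TspanC8 group, tetraspanins that bind ADAM10, bring it to the cell surface and steer it to different substrates. ADAM10 makes the cut in Notch that precedes γ-secretase. TSPAN14 (ENSG00000108219, chr10:80454166-80533123, plus strand) had a full level of 34.9, 28.5 and 31.8 TPM with the PSENEN siRNA and of 55.1, 44.0 and 38.8 TPM with the mismatch siRNA. The PSENEN siRNA libraries were all lower, at 69.0% of the mismatch mean (change -0.51, SE 0.16, 95% interval -0.88 to -0.14), without passing the test (limma adjusted p = 0.219). By annotated level it was at 13.2, 5.08 and 14.9 TPM against 48.2, 17.1 and 20.5 TPM. That change was -1.27 (SE 0.51, adjusted p = 0.375), and it was -0.83 without mismatch siRNA library 1 and also -0.83 without PSENEN siRNA library 2.

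The gap between the measures of TSPAN14 is the part held by unnamed assembled transcripts. Why these did not match the annotation was not tested. Annotated transcripts held 17.8 to 87.5% of its full level, and every library had 1 to 8 unnamed assembled transcripts of the gene. TSPAN14-206, a protein-coding transcript of 5476 bases, was at 11.9, 0.787 and 12.5 TPM with the PSENEN siRNA and at 13.3, 14.4 and 15.1 TPM with the mismatch siRNA. TSPAN14-210 was at 23.2 TPM in mismatch siRNA library 1 and at 0.711 TPM or less in the other 5 libraries.

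TSPAN15 (ENSG00000099282, chr10:69451473-69507669, plus strand) was the only 1 of the 10 measured wholly by annotated transcripts in every library. No library had an unnamed transcript that shares an intron with it, and no other annotated gene overlaps it. Its level was 24.6, 27.8 and 29.7 TPM with the PSENEN siRNA and 28.98, 28.9 and 36.6 TPM with the mismatch siRNA. The groups overlapped (change -0.19, 95% interval -0.53 to 0.15, limma adjusted p = 0.610), and TSPAN15-201 held 93.1 to 98.5% of it in each library. Without mismatch siRNA library 3, the highest, the change was -0.08. ADAM10 itself had a full level of 30.5, 31.5 and 36.2 TPM with the PSENEN siRNA and 32.2, 47.2 and 35.6 TPM with the mismatch siRNA. Its groups overlapped too (change -0.21, adjusted p = 0.618), and without mismatch siRNA library 2 the change was -0.05. ADAM10 and, below, TSPAN5 and CLDN1 are named for their role or after their values were seen.

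TSPAN1 (ENSG00000117472, chr1:46175073-46185958, plus strand) is a tetraspanin of epithelia whose level is raised in several carcinomas. By annotated level it looked almost silent, with 1.78, 2.24 and 0.241 TPM with the PSENEN siRNA and 2.05, 2.96 and 4.61 TPM with the mismatch siRNA. That change was -0.87 (SE 0.43, limma adjusted p = 0.453), and -0.44 without PSENEN siRNA library 3. Its full level was 46.9, 44.2 and 42.6 TPM with the PSENEN siRNA and 49.2, 62.2 and 78.7 TPM with the mismatch siRNA. By that measure the groups were separated, narrowly, and the change was -0.48 (SE 0.17, 95% interval -0.89 to -0.06, adjusted p = 0.285). Without mismatch siRNA library 3 that change was -0.31. Annotated transcripts thus held only 0.566 to 5.86% of the full level, the lowest share among the 10.

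The rest of the TSPAN1 level lay in unnamed assembled transcripts, 1 to 4 per library. TSPAN1-202 and TSPAN1-204, the annotated transcripts that led the gene, have no coding sequence: TSPAN1-202 was at 2.77 TPM or less in every library, and TSPAN1-204 at 4.61 TPM in mismatch siRNA library 3 and at 0.241 TPM or less elsewhere. TSPAN1-201, the protein-coding reference transcript of 9 exons, begins at position 46175087 and was listed in 0 of 6 libraries. Each library did have an assembled transcript with 7 of its 8 introns and without the first. That transcript started between positions 46180517 and 46180546, at or near the annotated exon 2 (46180526 to 46180658) and 5430 to 5459 bases after the annotated start. It stood at 14.0, 17.5 and 35.5 TPM with the PSENEN siRNA and at 47.1, 53.5 and 58.0 TPM with the mismatch siRNA. All unnamed TSPAN1 transcripts together summed to 45.1, 41.9 and 42.3 TPM and to 47.1, 59.3 and 74.1 TPM. Other unnamed transcripts thus held most of the sum in PSENEN siRNA libraries 1 and 2. The groups differed far more in this 1 transcript than in the gene. This transcript was assembled separately in each library and picked there by the most introns shared. The part of how the assembler split the gene into transcripts was not tested. Where these RNAs begin was not measured by a method that captures RNA ends, and AL358075.4 and AL672043.1 overlap TSPAN1 on the opposite strand.

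**Figure D3:**
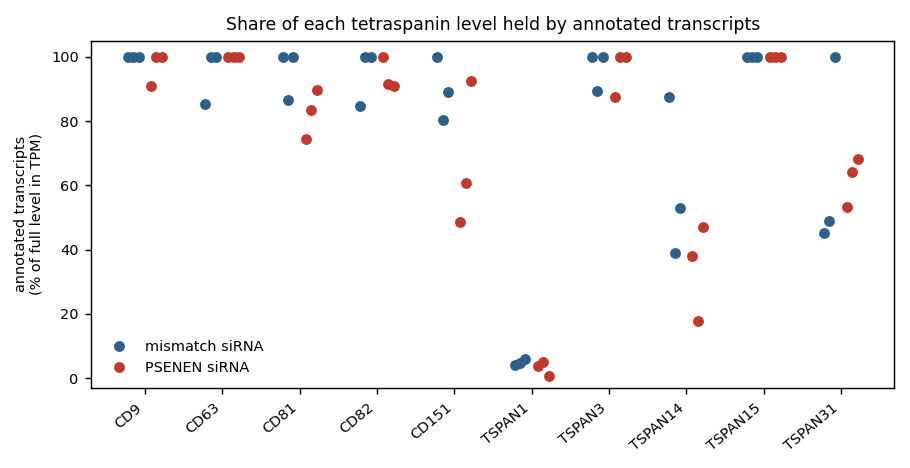
Percentage of the full level of each tetraspanin that annotated transcripts hold (vertical axis, in TPM), with 1 point per library, mismatch siRNA at left and PSENEN siRNA at right within each gene. TSPAN1 lies between 0.566 and 5.86% in every library, TSPAN14, TSPAN31 and CD151 are spread over a wide range, and TSPAN15 is at 100% throughout.

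TSPAN3 (ENSG00000140391, chr15:77041404-77083984, minus strand) is a broadly expressed member. Its annotated level was 24.0, 32.3 and 29.7 TPM with the PSENEN siRNA and 29.9, 25.0 and 22.2 TPM with the mismatch siRNA. The groups overlapped (change 0.15, 95% interval -0.25 to 0.55, limma adjusted p = 0.729), and over protein-coding transcripts alone the change was -0.02. It was 0.06 both without PSENEN siRNA library 2 and without mismatch siRNA library 3. TSPAN3-201 held 82.1, 98.6 and 83.9% of the annotated level with the PSENEN siRNA and 99.2, 99.7 and 99.5% with the mismatch siRNA. Its share was lower in each PSENEN siRNA library (exact permutation p = 0.1, 0.5 adjusted over the 10 members), although PSENEN siRNA library 2 came within 1 percentage point of the others. AC090181.2 and AC090181.3 overlap TSPAN3 on the same strand, by 672 and 1514 bases. By full level AC090181.3 was at 4.86, 6.30 and 4.62 TPM with the PSENEN siRNA and at 3.85, 2.67 and 4.47 TPM with the mismatch siRNA. The part of their reads in the TSPAN3 values was not tested.

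TSPAN31 (ENSG00000135452, chr12:57738013-57750211, plus strand), first described as a gene amplified in sarcomas, was the least abundant member by full level with either siRNA. Its annotated level was 4.68, 4.03 and 5.88 TPM with the PSENEN siRNA and 4.24, 3.93 and 3.88 TPM with the mismatch siRNA. The groups overlapped (change 0.21, limma adjusted p = 0.638), as they did by full level (change 0.19, adjusted p = 0.808). Without PSENEN siRNA library 3 the annotated change was 0.09, and without mismatch siRNA library 3 the full-level change was -0.14. TSPAN31-201, protein-coding and the leading transcript, held 70.6% ± 15.6 and 68.1% ± 27.6 of the annotated level. The cell cycle kinase CDK4 overlaps it by 2485 bases on the opposite strand. CDK4 was at 82.5, 78.7 and 88.5 TPM with the PSENEN siRNA and at 59.2, 72.7 and 61.4 TPM with the mismatch siRNA (full level, change 0.37, adjusted p = 0.227). Its groups did not overlap, and as with POLR2L the part of CDK4 reads in the TSPAN31 level was not tested.

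**Figure D4:**
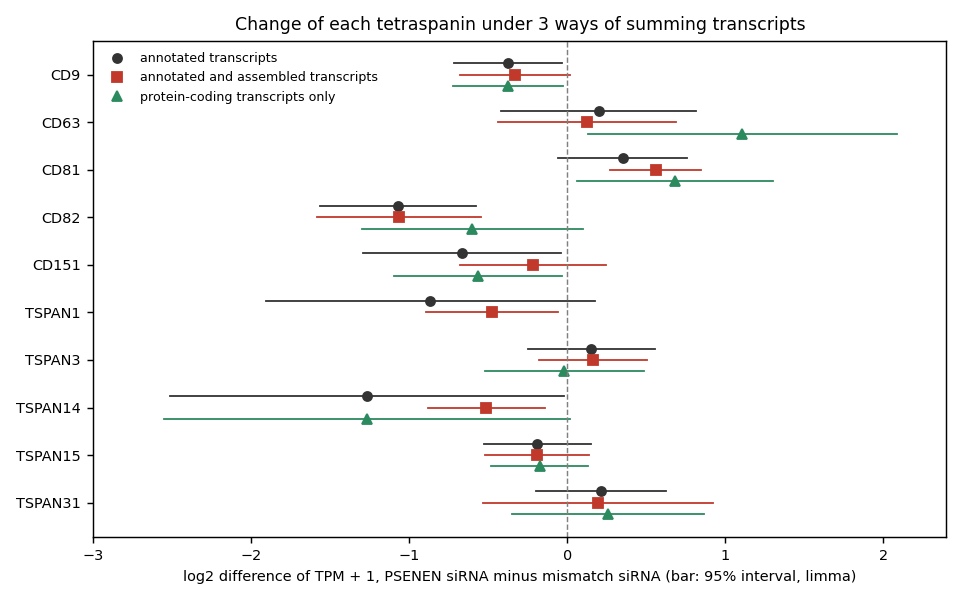
Change of each tetraspanin between the groups (horizontal axis, difference of mean log2(TPM + 1), above 0 where the PSENEN siRNA was higher) by annotated transcripts, by annotated and assembled transcripts and by protein-coding transcripts only, with 95% intervals from limma. The points of CD9, CD82, CD151, TSPAN14 and TSPAN15 lie below 0 and those of CD81 and TSPAN31 above 0 by all 3 sums, each with at least 1 interval that includes 0, CD63 moves from 0.20 and 0.12 to 1.11 with protein-coding transcripts only, and TSPAN1 has no protein-coding value.

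Over protein-coding transcripts alone, 9 members could be tested and 0 were called, against 0.409% of 10276 genes. CD63 and CD81 were separated upwards and CD9, CD151 and TSPAN14 downwards, against 8.05% and 16.3% of all genes in that fit. Sequence shared with other genes was low: CD9, CD63, CD81, TSPAN1 and TSPAN15 shared 0% of the 31-base words of their annotated transcripts with another gene, and the highest share was 7.23%, in TSPAN31.

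A further 23 tetraspanin genes were looked for. Of these, 10 were listed in the files used here, and 7 could be tested by annotated level. The number called was 0, and their median change was 0.03 (-0.17 over the 8 tested by full level). TSPAN13 was the most abundant, at 21.5, 26.5 and 23.2 TPM with the PSENEN siRNA and 28.2, 31.2 and 28.7 TPM with the mismatch siRNA, and its groups did not overlap (change -0.30, limma adjusted p = 0.370). TSPAN6 was at 15.2 to 19.6 TPM in the 6 libraries and TSPAN17 at 8.27 to 10.7 TPM. Both overlapped between groups, and the direction of TSPAN17 turned from 0.03 to -0.19 with assembled transcripts included. By annotated level 2 of the 7 tested were separated downwards, TSPAN13 and TSPAN5, against 13.7% of all genes tested. TSPAN5 was at 3.92, 3.47 and 4.22 TPM with the PSENEN siRNA and at 4.63, 4.69 and 4.64 TPM with the mismatch siRNA (change -0.22, limma adjusted p = 0.561). By full level it was 3 of the 8, against 14.5%, and none was separated upwards by either measure. The blood cell tetraspanins CD37 and CD53 and the urothelial UPK1A and UPK1B are among the 13 that no library lists.

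Of 20 membrane partners of tetraspanins, all were tested. By annotated or full level 0 were called, against 0.409% and 0.511% of all genes tested. Their median change was -0.09 and -0.20, beside -0.04 and -0.05 over all genes tested. By annotated level 2 were separated upwards and 2 downwards, against 8.21% and 13.7% of all genes tested. By full level it was 2 and 3, against 7.81% and 14.5%. By annotated level the most abundant were BSG, CD44 and ITGA6. BSG, a matrix metalloproteinase inducer, was at 193 to 283 TPM with the PSENEN siRNA and 214 to 229 TPM with the mismatch siRNA. CD44, the hyaluronan receptor, was at 148 to 322 TPM and 122 to 304 TPM, and by full level at 267 to 475 TPM and 211 to 413 TPM. ITGA6, a subunit of the laminin-binding integrins that CD151 joins, was at 158 to 187 TPM and 159 to 267 TPM. All 3 overlapped between groups. By full level SLC3A2, an amino acid transporter subunit also known as CD98, stood among the first 3 in place of ITGA6, at 227 to 281 TPM and 180 to 374 TPM. CLDN1, a tight junction protein that forms a complex with CD81 on liver cells, came nearest to the threshold, with 119, 119 and 119 TPM against 82.3, 78.6 and 76.7 TPM (change 0.58, SE 0.08, limma adjusted p = 0.0608). It passed in 5 of 26 alternative analyses, and over all 26 its adjusted p ranged from 0.0220 to 0.356.

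Among 22 endosome and vesicle genes, 1 was called, against 0.409% of all genes tested, and it was lower. By annotated level 7 of the 22 were lower in every PSENEN siRNA library than in any other, against 13.7% of all genes. The called gene was SDC4, a heparan sulfate proteoglycan that syntenin links to vesicle formation. It was at 52.5, 58.0 and 55.3 TPM with the PSENEN siRNA and at 121, 130 and 127 TPM with the mismatch siRNA, with no overlap (change -1.18, SE 0.09, limma adjusted p = 0.0139). With any single library left out, the change was -1.14 to -1.21 and the adjusted p was 0.0594 to 0.0820, so the call was lost while the size held. SDC1, of the same family, was at 93.2, 93.0 and 95.4 TPM against 118, 136 and 147 TPM and was not called (change -0.50, adjusted p = 0.130). ANXA2 at 433 to 1033 TPM and LAMP1 at 119 to 150 TPM, both in the 6 libraries, overlapped between groups. The median change of the 22 genes was -0.08 by annotated and -0.02 by full level, beside -0.04 and -0.05 over all genes tested.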

How the data were processed

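The 6 libraries are deposited as 1 StringTie assembly each. The authors deposited TPM, FPKM and coverage per transcript in the attribute text of each file, per the file headers, and no counts, so depth is known only as an estimate from coverage divided by FPKM and no counting intervals are given. Bowtie 0.12.2 and builds mm8 and mm9, which are mouse builds, stand in the submitters' processing notes, although the files are human. For the aligner of these files, the assembler options and the strandedness, nothing is given in the sources used here. Of 92476 reference transcripts named, 92263 were in GENCODE 29 (GRCh38), 98.3% at the same position.

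TPM was summed per gene over transcripts with a reference gene name, and also with unnamed transcripts that share an intron. Levels were tested with limma 3.58.1 (R 4.3.3) on log2(TPM + 1), trend on, over every gene that reached 1 TPM in 3 or more libraries, with Benjamini-Hochberg adjustment and 4 residual degrees of freedom. The fit code was run on simulated data with known changes in well expressed genes, which does not test how calls hold in these libraries. Python 3.11.15, pandas 2.3.3 and SciPy 1.17.1 were used otherwise.

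Named are PSENEN, the 10 members with their leading transcripts and those with at least 20% of the gene in 1 group mean, and from each list every called gene and the 3 most abundant. The members and lists were chosen with earlier results of these data known. Alternatives were 17 of other pseudocounts, filters, units, scalings, a replicate block and left-out libraries, and 9 added after seeing the data. No sign was seen that replicate numbers pair the libraries.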

Additional observations from a re-analysis of the deposited data

How the results depend on the processing

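With all 6 libraries 64 genes were called (20 higher, 44 lower). The number was 28 with a pseudocount of 0.1, 107 with assembled bases, 42 with protein-coding transcripts only and 7 to 16 with 1 library left out. With assembled transcripts included and PSENEN siRNA library 1, 2 or 3 left out it was 10, 9 and 12, and with mismatch siRNA library 1, 2 or 3 left out it was 9, 11 and 10. With the replicate number as a block, 1 gene was called, and 6 with assembled transcripts included. No sign was seen that the numbers pair the libraries. Deviations of same-numbered libraries from their group means correlated at -0.0489 to 0.0001. By these deviations, 0 of 3 PSENEN siRNA libraries were closest to their own number. With 3 libraries per group this cannot settle whether they were paired. Median-of-ratios scaling gave 21 higher and 28 lower genes, and quantile normalization 17 and 28. No setting called any of the 10 members.

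Changes of gene level that turned direction were small and uncalled. CD63 ranged from -0.074 to 0.36 with 1 library left out, and was at -0.15 with assembled transcripts and without PSENEN siRNA library 2. TSPAN3 was at -0.018 with protein-coding transcripts only, and TSPAN31 at -0.14 with assembled transcripts and without mismatch siRNA library 3. TSPAN17 ranged from -0.067 to 0.10 with 1 library left out. With assembled transcripts it was at -0.19, also with the block, and at -0.12 after quantile normalization. With PSENEN siRNA library 1, 2 or 3 left out as well it was at -0.25, -0.24 and -0.069, and with mismatch siRNA library 1, 2 or 3 left out at -0.087, -0.30 and -0.17. Differences in the share of the leading transcript ranged, with 1 library left out, from -2.91 to 3.18 percentage points for CD9, -22.2 to 18.4 for CD151, -32.7 to 28.2 for TSPAN1, -15.8 to 25.1 for TSPAN14, -0.609 to 2.07 for TSPAN15 and -13.4 to 11.9 for TSPAN31. The cause was not tested. TSPAN1 could not be fitted with FPKM, a minimum of 5 TPM or protein-coding transcripts only, nor TSPAN31 with a minimum of 5 TPM, because they did not pass the filter. SDC4 lost its call in 14 of 26 alternatives.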
